A study of Mus musculus with 24 samples.

Results

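The interferon response genes described here are 44 named genes that cells switch on after interferon, taken by symbol from a table of 17111 genes of mouse muscle stem cells, the satellite cells that rebuild muscle after damage. A row was present for 41 of them, and all 41 passed the filter on low values (4 or more of the 24 libraries with a value of 1 or higher), while Mx1, Oas2 and Oas3 were not analysed here. Muscle stem cells were compared between L2A-WT mice, called WT, and L2A-Pax7CreER mice, called KO as in the library names. In the latter, Cre recombinase driven by the muscle stem cell gene Pax7 acts on Lamp2a, the splice form of Lamp2 that serves as the lysosomal receptor of chaperone-mediated autophagy. Cells came from uninjured muscle (day 0) or from muscle at day 1 or day 4 after intramuscular cardiotoxin, a venom toxin that destroys muscle fibres, and each of the 6 groups of genotype and day held 4 libraries. No group carried the Cre with intact Lamp2a, so effects of the Cre, of any inducer of it and of losing Lamp2a cannot be told apart. The labels give neither the age nor the sex of the mice, and they leave unsaid if each library stands for an animal of its own. The p-values therefore rest on the spread between these libraries, pooled over all 6 groups, which may be partly technical.

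Type I interferons bind the receptor made of IFNAR1 and IFNAR2, and type II interferon binds IFNGR1 and IFNGR2. Both receptors signal through Janus kinases to transcription factors, STAT2 and IRF9 among them in the type I branch, that bind short motifs in promoters called the interferon-stimulated response element (ISRE) and the gamma-activated site (GAS). The genes they raise encode RNA sensors, proteins that block viral RNA or trap virus particles, GTPases that attack vacuoles, and the class I machinery that shows peptides to T cells. Many of them also have a basal level in cells that no virus has reached.

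Promoters of 5 members that fell in KO at day 1 are shown, because they carry the motifs through which this response is known to run. The motifs searched, on both strands, were an ISRE core (GAAA, any 2 bases, GAAA) and a GAS core (TTC, any 3 bases, GAA); the cores overlapped in 24 of the windows searched. Windows of 300 bases (250 before and 50 after the gene start) came from RefSeq on GRCm38.p6, an earlier build than the mm39 named in the submitters' processing notes, and 33 of the 41 members matched one by symbol. Of the matched members, 18 (54.5%) held an ISRE core and 9 (27.3%) a GAS core, against 3.99% and 9.55% of the 27025 genes in that table, or 3.44% and 8.30% of its 32851 windows. The 200 bases before the start are given 5′ to 3′ on the strand of the gene, with the motif matches in capitals, for Ifit1 (chr19:34640689-34640888, plus strand), Ifit3 (chr19:34583329-34583528, plus), Gbp7 (chr3:142530136-142530335, plus), Irgm1 (chr11:48871421-48871620, minus) and Irf1 (chr11:53769814-53770013, plus).
Ifit1: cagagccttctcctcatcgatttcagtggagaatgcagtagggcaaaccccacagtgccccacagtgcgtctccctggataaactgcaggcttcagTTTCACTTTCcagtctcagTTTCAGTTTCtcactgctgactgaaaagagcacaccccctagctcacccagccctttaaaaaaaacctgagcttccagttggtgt
Ifit3: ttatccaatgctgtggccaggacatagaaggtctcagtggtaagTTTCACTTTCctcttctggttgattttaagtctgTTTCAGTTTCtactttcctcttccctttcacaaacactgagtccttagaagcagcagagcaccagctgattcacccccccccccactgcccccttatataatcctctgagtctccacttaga
Gbp7: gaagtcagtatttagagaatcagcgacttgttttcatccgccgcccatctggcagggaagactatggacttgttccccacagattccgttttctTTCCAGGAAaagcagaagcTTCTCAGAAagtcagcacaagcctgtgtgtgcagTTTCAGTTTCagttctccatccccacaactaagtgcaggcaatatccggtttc
Irgm1: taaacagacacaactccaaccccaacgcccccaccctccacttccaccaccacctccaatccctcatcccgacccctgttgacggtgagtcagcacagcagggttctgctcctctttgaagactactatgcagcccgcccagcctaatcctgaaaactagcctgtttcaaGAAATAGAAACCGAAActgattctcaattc
Irf1: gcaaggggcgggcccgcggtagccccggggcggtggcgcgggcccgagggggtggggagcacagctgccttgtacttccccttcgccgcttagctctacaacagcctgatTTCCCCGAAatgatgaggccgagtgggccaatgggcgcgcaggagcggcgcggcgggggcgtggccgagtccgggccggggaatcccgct
Ifit1 and Ifit3 each hold 2 separate ISRE cores, Irgm1 holds 2 that overlap, Gbp7 holds 1 beside 2 GAS cores, and Irf1 holds a single GAS core and no ISRE core. Of the 6 matched members that fell at day 1, 5 held an ISRE core and 2 a GAS core, and of the 4 matched members that rose, 2 and 1. A match is a description of these letters and was not tested for binding.

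Totals ran from 11.58 to 22.47 M reads (M, mega) per library, so that 3 reads correspond to a value of 0.145 to 0.320. Values are normalised read counts, each a whole count plus 0.5 divided by a scaled library size, and they are not divided by gene length, so levels are compared between libraries of 1 gene and not between genes. Lamp2, whose row sums all its splice forms and so does not check the loss of the A form, overlapped between genotypes at each day (509 to 870 in WT and 529 to 608 in KO at day 0, 371 to 457 and 290 to 457 at day 1, 197 to 226 and 154 to 266 at day 4). All 10 muscle stem cell markers were present in each group, with a summed level of 2657 to 5640 at days 0 and 1 and of 1195 to 1380 at day 4. Log2 values of 2 libraries of a group correlated across genes at 0.863 to 0.883 in WT and 0.852 to 0.877 in KO at day 0, at 0.976 to 0.985 and 0.968 to 0.973 at day 1, and at 0.951 to 0.956 and 0.884 to 0.908 at day 4, so the libraries of day 0 and the KO libraries of day 4 were the least alike.

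One day after injury, Ifit1, Irf1, Irgm1 and 5 other interferon response genes fell in KO against WT, while the heavy chain genes of class I, 2 IFITM genes and Ifi27 rose. Of the 41 members, 8 fell and 5 rose at an adjusted p under 0.05 (limma, Benjamini-Hochberg), against 2.08% of all 16985 genes tested that fell and 7.12% that rose. The median log2 difference of the members was -0.77 and that of all genes -0.03, and 34 of the 41 differences were negative. Every KO library was below every WT library for 18 members (43.9%), against 12.3% of all genes, and above for 6 (14.6%), against 13.9% of all genes. Shares of this kind, here and at the other days, include genes with few or no reads, which library scale alone can order. Differences are given as log2(value + 1), and adding 1 makes the change of a gene with values near 0 look smaller. In bulk samples such as these, fewer cells of a type and less RNA per cell cannot be told apart.

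**Figure D1:**
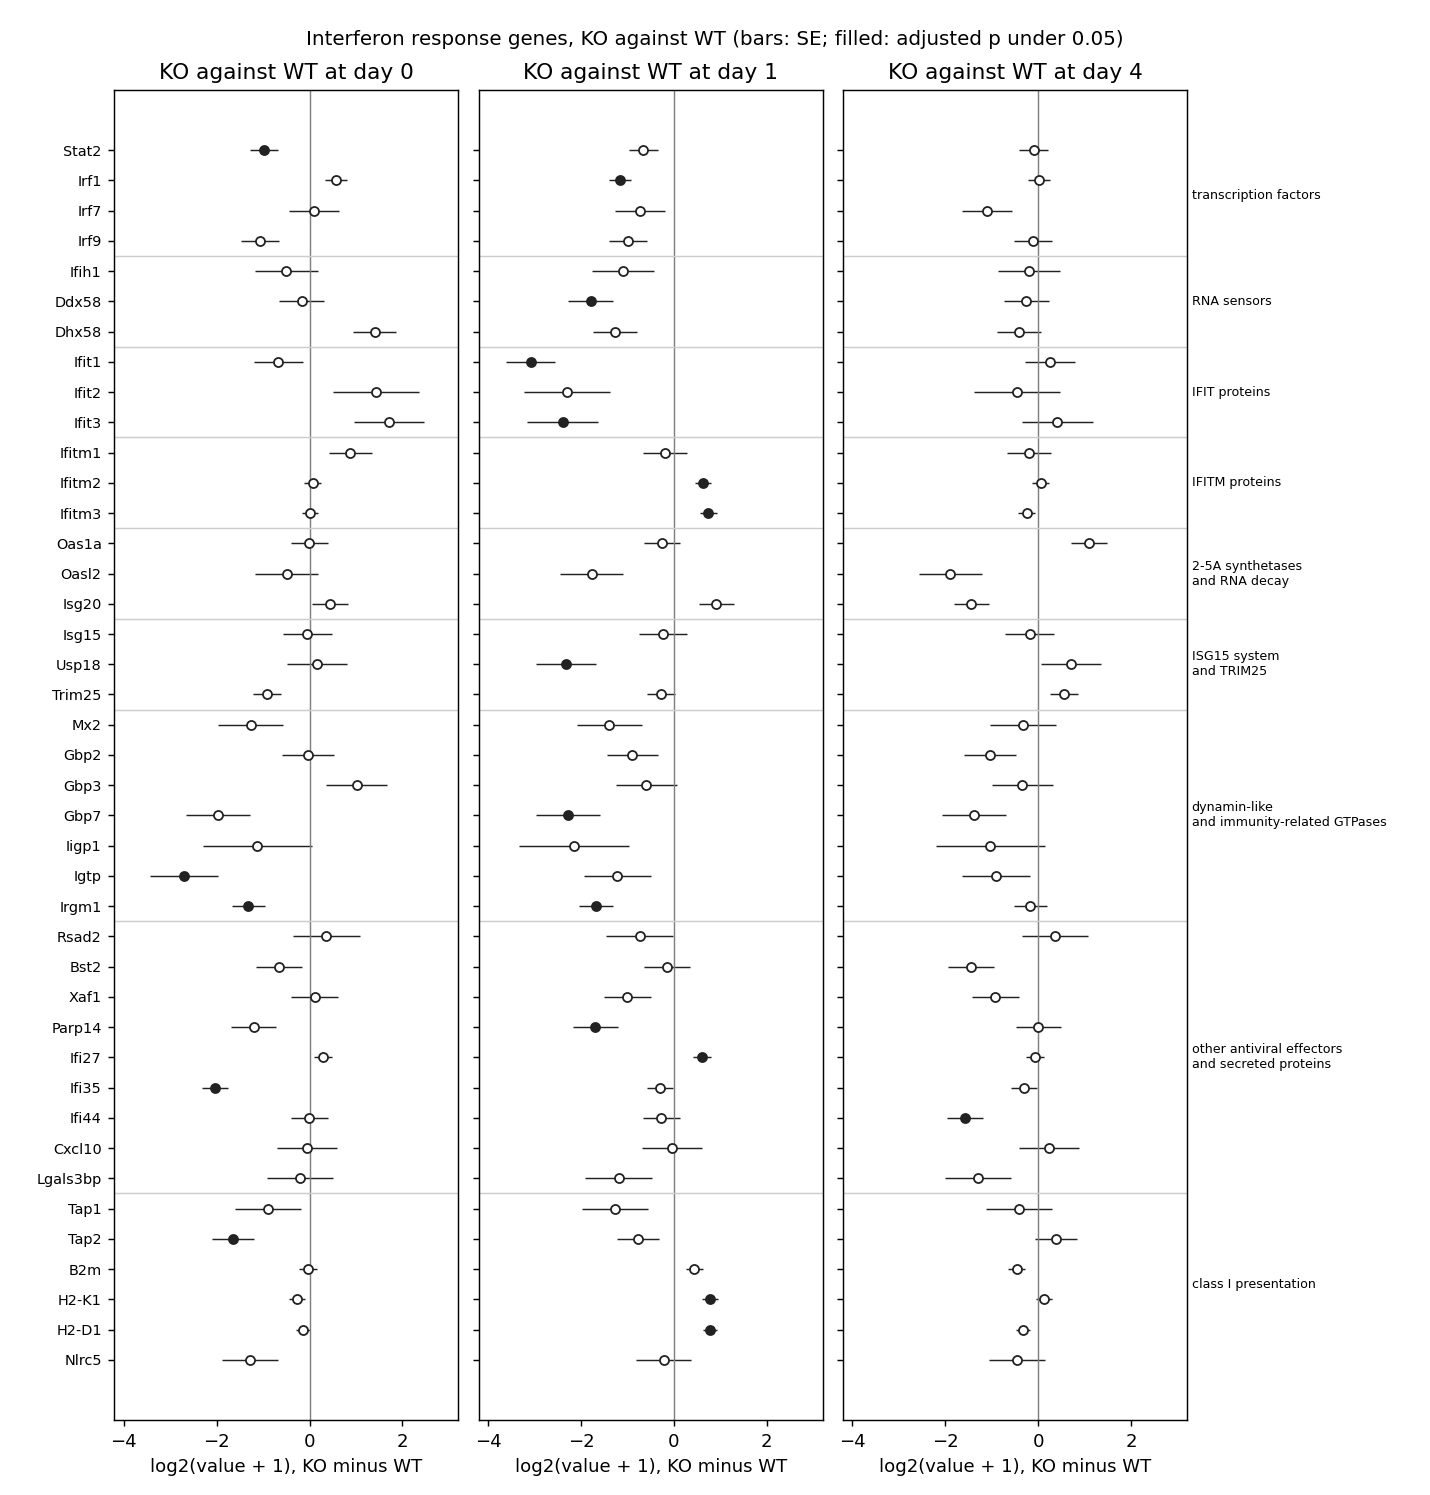
Difference between KO and WT at day 0, day 1 and day 4 for the 41 members, as log2(value + 1) in KO minus WT (x axis), with genes grouped by role (y axis); bars are standard errors and filled points passed the test. At day 1, 34 of the 41 points lie below 0, and the filled points above 0 are Ifitm2, Ifitm3, Ifi27, H2-K1 and H2-D1.

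The IFIT proteins, which bind viral RNA and block its translation, held the members with the largest fall. Ifit1 read 7.54, 11.1, 4.20 and 11.4 in the WT libraries of day 1 and 0.0278, 0.0720, 0.0261 and 0.134 in the KO libraries. The KO libraries held 3 reads of Ifit1 in all, against 743 in WT, a 217.1-fold lower level (95% interval 74 to 1055, counting error only), and the fitted difference was -3.09 ± 0.54 (SE, n = 4 libraries per group; limma adjusted p = 0.0003093). Ifit1 was thus near 0 in each KO library of day 1 and well above it in each WT library. Ifit3 read 5.05, 7.78, 5.37 and 16.3 in WT and 1.75, 1.18, 0.0261 and 0.241 in KO (-2.40 ± 0.76; limma adjusted p = 0.04902). Leaving out any 1 of the 8 libraries ended that call, with adjusted p up to 0.1704 in the fit without WT library 4. Reads of Ifit3 can be shared with its near copy Ifit3b, which is described with the wider lists. Ifit2 was lower in each KO library (0.25 to 7.33, against 8.62 to 13.1 in WT) and missed the threshold (-2.30 ± 0.93, limma adjusted p = 0.1481), with KO library 3 at 7.33 far above the other KO libraries.

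Among the transcription factors that carry the response, Irf1, itself induced by interferon and a driver of class I genes, showed the narrowest spread. It read 77.3, 75.1, 77.0 and 70.3 in WT (mean 74.9 ± 3.24 SD, n = 4) and 31.1, 32.2, 35.3 and 33.4 in KO (33.0 ± 1.78 SD, n = 4), a difference of -1.16 ± 0.24 (limma adjusted p = 0.001565). The gap between the groups was wider than the range within either of them. Irf9, the DNA-binding partner of STAT2, was at 28.4 to 36.8 in WT and 14.9 to 17.8 in KO, a separation that missed the threshold (-0.99 ± 0.41, limma adjusted p = 0.1682). Stat2 and Irf7, the factor that amplifies type I interferon, overlapped between genotypes, with differences of -0.66 ± 0.31 and -0.74 ± 0.54.

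The RNA sensors that start interferon production were lower in every KO library. Ddx58, which encodes RIG-I, the sensor of RNA ends, read 12.9, 15.6, 24.4 and 18.8 in WT and 5.69, 3.14, 3.21 and 5.91 in KO (-1.79 ± 0.49; limma adjusted p = 0.01794). The call ended without WT library 3 (adjusted p = 0.069), without KO library 2 (0.05775) and without KO library 3 (0.05455). Ifih1, which encodes MDA5, the sensor of long double-stranded RNA, and Dhx58, which encodes their regulator LGP2, did not overlap between genotypes either, but did not pass the test (-1.10 ± 0.67 and -1.27 ± 0.47).

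GTPases of the guanylate-binding and immunity-related families disrupt vacuoles that hold microbes. Together with the dynamin-like GTPase gene Mx2, all 7 such members with a value were lower in KO, 2 of them past the test. Irgm1, a regulator of the family that also acts in autophagy, read 96.4, 69.7, 73.1 and 65.7 in WT (76.2 ± 13.8 SD, n = 4) and 25.6, 17.2, 24 and 26.1 in KO (23.2 ± 4.14 SD, n = 4), a fall of -1.67 ± 0.36 (limma adjusted p = 0.002636). Gbp7 read 15.7, 14.1, 9.96 and 13.7 in WT and 0.639, 0.744, 7.17 and 2.17 in KO (-2.28 ± 0.68; limma adjusted p = 0.03503). KO library 3 was the one close to the WT range. This call ended without any single one of 7 of the 8 libraries, with adjusted p between 0.05874 and 0.1233, and its reads may be shared with Gbp3. Mx2, Gbp2 and Igtp separated the genotypes without passing the test.

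Usp18, which removes ISG15 from proteins and damps the type I receptor, read 11.9, 7.87, 8.65 and 16.7 in WT and 3.36, 2.86, 0.808 and 0.0267 in KO (-2.32 ± 0.64; limma adjusted p = 0.02095). All KO libraries lay below the lowest WT value. Its call ended without WT library 4 (adjusted p = 0.07433), KO library 3 (0.06023) or KO library 4 (0.1039). The ubiquitin-like Isg15 itself overlapped between genotypes (2.84 to 5.93 in WT, 2.76 to 5.25 in KO). Parp14, an ADP-ribosyltransferase, read 7.04, 8.19, 5.98 and 5.64 in WT and 0.306, 1.70, 0.756 and 4.04 in KO (-1.69 ± 0.48; limma adjusted p = 0.02567). Leaving out WT library 1, 2 or 3 or KO library 1 or 3 ended that call, with adjusted p from 0.0519 to 0.1096. The tetherin gene Bst2 and the chemokine gene Cxcl10 overlapped, with differences of -0.15 ± 0.49 and -0.04 ± 0.64.

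**Figure D2:**
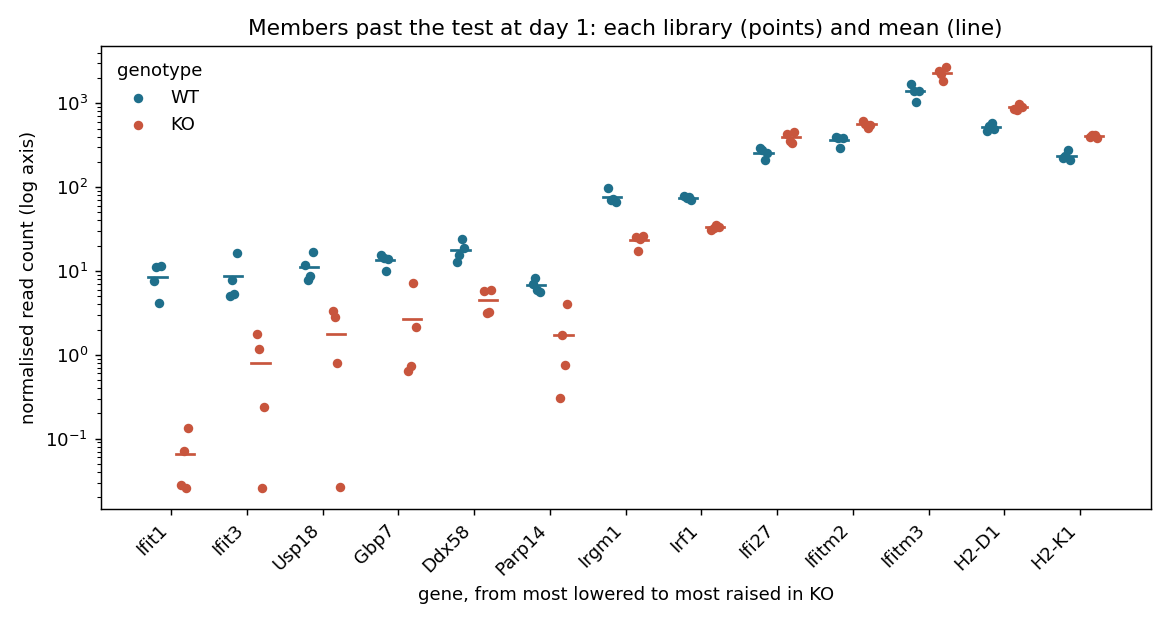
Normalised read counts (log y axis) at day 1 of the 13 members past the test, with 4 WT libraries (blue points) and 4 KO libraries (red points) per gene and the group means as lines. The 8 genes at the left are lower in each KO library, with Ifit1 under 0.14 in KO, and the 5 at the right are higher in each KO library.

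In the opposite direction, the class I heavy chain genes rose in KO at day 1. H2-K1 read 222, 234, 274 and 208 in WT (235 ± 28.5 SD, n = 4) and 397, 415, 417 and 382 in KO (403 ± 16.8 SD, n = 4), a difference of 0.78 ± 0.17 (limma adjusted p = 0.002752). H2-D1 read 469, 541, 578 and 495 in WT and 856, 838, 977 and 896 in KO (0.78 ± 0.15; limma adjusted p = 0.001029). The 2 sequences are close enough to share reads. Tap1 and Tap2, the subunits of the transporter that feeds peptides to class I, and Nlrc5, its transcriptional activator, were not raised (-1.27 ± 0.71, -0.77 ± 0.45 and -0.22 ± 0.60, none past the test), and B2m, the light chain, was at 348 to 528 in WT and 513 to 701 in KO (0.44 ± 0.19, limma adjusted p = 0.1743).

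IFITM proteins sit in membranes and hinder virus entry. Ifitm3 read 1720, 1385, 1046 and 1407 in WT and 2457, 2218, 1863 and 2710 in KO (0.74 ± 0.18; limma adjusted p = 0.006906), and Ifitm2 read 391, 380, 295 and 384 in WT and 623, 564, 505 and 548 in KO (0.63 ± 0.18; limma adjusted p = 0.0236). Ifi27, a mitochondrial and nuclear-envelope protein, was at 211 to 291 in WT and 338 to 454 in KO (0.61 ± 0.19; limma adjusted p = 0.0482). All KO libraries were higher for these 3 genes, and Ifitm1 overlapped (0.353 to 0.911 in WT, 0.0720 to 1.28 in KO). Under quantile normalization none of the 5 rises passed the test: H2-K1 stood at 0.47 (limma adjusted p = 0.1738), H2-D1 at 0.37 (0.2248), Ifitm3 at 0.34 (0.2836), Ifitm2 at 0.32 (0.3832) and Ifi27 at 0.32 (0.4439). Ifitm2 lost its call without WT library 3 (adjusted p = 0.1012) or without KO library 1, 2 or 4, and Ifi27 in 7 of the 8 fits without 1 library (adjusted p up to 0.1746, without WT library 3). The same quantile setting left 3 of the 8 falls past the test, namely Ifit1, Irf1 and Irgm1, which passed under each alternative run. Neither edgeR nor DESeq2 called Ifit3 (adjusted p = 0.19 and 0.05363), Usp18 (0.358 and 0.213), Gbp7 (0.2233 and 0.07752) or Ifi27 (0.05044 and 0.1123). DESeq2 did not call Ifitm2 (0.06533) and edgeR did not call Parp14 (0.05298), and a pseudocount of 5 ended the calls of Parp14 (0.1925) and Ifit3 (0.06862).

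Markers of other cells moved with genotype at day 1, and their part in these differences was not tested. The summed level of 9 myofibre markers was 200 to 297 in WT and 22.8 to 64.2 in KO, with 8 of the 9 lower in KO, and that of 11 markers of fibro-adipogenic progenitors was 302 to 425 in WT and 397 to 822 in KO, with Col1a1 and Col3a1 higher. Markers of smooth muscle and pericytes summed to 252 to 330 in WT and 361 to 468 in KO, and went in both directions. Notch3 and Tagln were higher and passed the test, and Acta2 (0.51) and Myh11 (0.12) were higher without passing. Rgs5 (-1.05), Kcnj8 (-0.93), Abcc9 (-0.54) and Cspg4 (-0.21) were lower, none past the test. The 6 measured markers of B cells and plasmacytoid dendritic cells, the latter being known producers of interferon, summed to 79.6 to 85.0 in WT and 116 to 182 in KO, with no overlap. Of these 6, Tcf4 (0.46, limma adjusted p = 0.02247) and Klk1 (4.67, limma adjusted p = 7.632e-06) were higher and carried most of the sum. Their means were 78.6 and 0.0584 in WT and 109 and 32.3 in KO. Cd79a (-0.32) and Ccr9 (-0.12) were lower in KO, neither past the test, and Ccr9 was near 0 in both genotypes (means 0.138 and 0.0392). The B cell genes Cd79b and Ms4a1 were at most 0.369 in all libraries of day 1. The T cell gene Lck was at 0.960 to 2.27 in WT and 2.81 to 9.30 in KO and did not pass; markers of dendritic cells (2.18 to 7.08 and 6.19 to 14.5), neutrophils (6.28 to 10.2 and 8.06 to 12.6) and endothelium (23.9 to 40.7 and 18.3 to 30.9) overlapped, none past the test. Of the muscle stem cell markers, 5 were lower and 3 higher in KO, and Pax7 was at 77.2 to 100 in WT and 28.5 to 37.0 in KO. The 20 macrophage and monocyte markers summed to 9.52 to 33.9 in WT and 17.3 to 28.4 in KO at day 1, none past the test, and the defining leukocyte gene Ptprc was at most 0.104.

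Before injury, 5 members were lower in KO and none was higher, against 4.93% of all genes lower and 4.82% higher (41 members, median -0.15; median of all genes 0.00). At an unadjusted p under 0.05 there were 13 members. The share of all genes at that threshold is not given here, so this count cannot be read as a result about the members. Ifi35, a leucine zipper protein induced by interferon, read 111, 91.2, 65.2 and 104 in WT (92.8 ± 20.2 SD, n = 4) and 9.19, 28.2, 36.3 and 22.3 in KO (24 ± 11.4 SD, n = 4), with a difference of -2.03 ± 0.28 (limma adjusted p = 4.947e-05). The GTPase gene Igtp read 41.4, 64.1, 31.8 and 43.6 in WT and 1.03, 8.62, 8.69 and 10.9 in KO (-2.70 ± 0.72; limma adjusted p = 0.01807). Stat2, a core subunit of the type I transcription factor, read 54.3, 46.7, 87.3 and 69.0 in WT and 38.3, 22.9, 36.9 and 29.7 in KO (-0.98 ± 0.31; limma adjusted p = 0.04324). In these 3 genes all KO libraries lay below all WT libraries, which held for 7.32% of the members and 3.74% of all genes; no member lay above in all libraries, against 3.23% of all genes. Irgm1 (-1.32 ± 0.36, limma adjusted p = 0.0196) and Tap2 (-1.64 ± 0.45, limma adjusted p = 0.02162) also passed, with overlapping libraries.

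All 5 calls of day 0 rested on the spread shared by the 24 libraries: with only the 8 libraries of day 0 in the fit none passed, Ifi35 being closest at an adjusted p of 0.08528. The calls of Igtp (adjusted p = 0.09959), Tap2 (0.08219) and Stat2 (0.06251) were not made by edgeR, those of Stat2 (0.07383) and Irgm1 (0.05184) ended under quantile normalization, and that of Stat2 with a pseudocount of 0.5 (0.05392). Igtp also lost its call without KO library 1 (adjusted p = 0.06939). Stat2 did without WT library 3 (0.1209) or 4 (0.08741) or KO library 2 (0.1089) or 4 (0.07645), Irgm1 without WT library 2 (0.05838) or 3 (0.05926) or KO library 1 (0.05021) or 3 (0.06318), and Tap2 without WT library 4 (0.06509) or KO library 2 (0.07302) or 3 (0.05822). Markers of other cells differed at day 0 too, and their part in the result was not tested. Those of fibro-adipogenic progenitors summed to 662 to 1086 in WT and 1701 to 2063 in KO, with Col1a1 and Col3a1 higher. Those of smooth muscle and pericytes summed to 279 to 363 and 421 to 856, also with no overlap. Acta2 alone passed (1.46, limma adjusted p = 0.001146) and carried most of that gap, with means of 116 in WT and 347 in KO. Myh11 (1.88), Abcc9 (1.67), Rgs5 (1.43), Cspg4 (0.88) and Tagln (0.04) were higher, and Notch3 (-0.37) and Kcnj8 (-0.18) lower, none past the test. Myofibre markers overlapped in sum (36.9 to 66.0 and 46.2 to 93.5), with Acta1 (3.50, limma adjusted p = 0.0002352) and Tnnt3 (1.41, 0.01689) higher and Actn3 lower (-1.14, 0.02753). Markers of B cells and plasmacytoid dendritic cells (314 to 513 and 461 to 534), endothelium (145 to 381 and 86.6 to 188) and macrophages and monocytes (18.6 to 114 and 25.7 to 56.6) overlapped, and of these 3 lists only Klk1 passed, higher in KO (5.04, limma adjusted p = 7.226e-06). The IFIT genes were uneven among the libraries of day 0. In WT, Ifit1 read 0.103, 0.0365, 0.0385 and 8.47, and the fourth library also held the highest Ifit2 (15.1) and Ifit3 (7.68) of its group. In that library the 20 macrophage and monocyte markers summed to 114, most of it from the gene Lyz2 (86.5). The sums in WT libraries 1, 2 and 3 of day 0 were 31.8, 33.2 and 18.6, and a link with the IFIT values was not tested. In KO, Ifit1 was at most 0.359, while Ifit2 read 1.43, 17.9, 23.2 and 0.137 and Ifit3 read 1.23, 18.1, 9.14 and 2.79.

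By day 4 few members separated the genotypes. A single member, Ifi44, was lower in KO and none was higher, against 0.524% and 0.530% of all genes (median of members -0.26, of all genes -0.03). At an unadjusted p under 0.05 there were 7 members, again with no share of all genes to set beside them. Ifi44, an antiviral protein of unsettled function, read 4.31, 4.48, 2.04 and 4.91 in WT and 0.0393, 0.0411, 4.88 and 0.0324 in KO (-1.58 ± 0.39; limma adjusted p = 0.04909). One KO library was thus as high as WT and the other 3 held next to no reads. The call ended without any 1 of 3 WT libraries or 3 KO libraries (adjusted p from 0.1187 to 0.1667), with a pseudocount of 5 (0.07126), under quantile normalization (0.1279) and with only the groups compared (0.3029), and neither edgeR nor DESeq2 called it (adjusted p = 1 in both). Every KO library lay below every WT library for Oasl2, Isg20, Bst2 and Xaf1 (9.76% of members, against 3.86% of all genes), none past the test, and no member lay above in all, against 3.84% of all genes. Bst2 read 26.3, 40.6, 34.2 and 35.9 in WT and 11, 9.25, 13.2 and 14 in KO, and the exonuclease gene Isg20 read 4.03, 3.76, 4.8 and 3.65 in WT and 0.668, 0.534, 1.26 and 1.07 in KO (limma adjusted p = 0.07617).

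The sort held macrophage transcripts at day 4 in both genotypes. The 20 macrophage and monocyte markers summed to 1620 to 2170 in WT and 1419 to 1575 in KO, with Ptprc at 23.9 to 51.3 and 12.4 to 20.3 and Csf1r at 23.8 to 36.2 and 17.3 to 22.2, while Ptprc was at most 0.172 at days 0 and 1. Macrophages express most interferon response genes, and the part of this difference in the values of day 4 was not tested. Among the KO libraries of day 4, the third held Iigp1 at 84.7, Lgals3bp at 59.6 and Ifi44 at 4.88, all above the other 3, and it also held the fibroblast genes Dcn at 555 and Lum at 142.

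**Figure D3:**
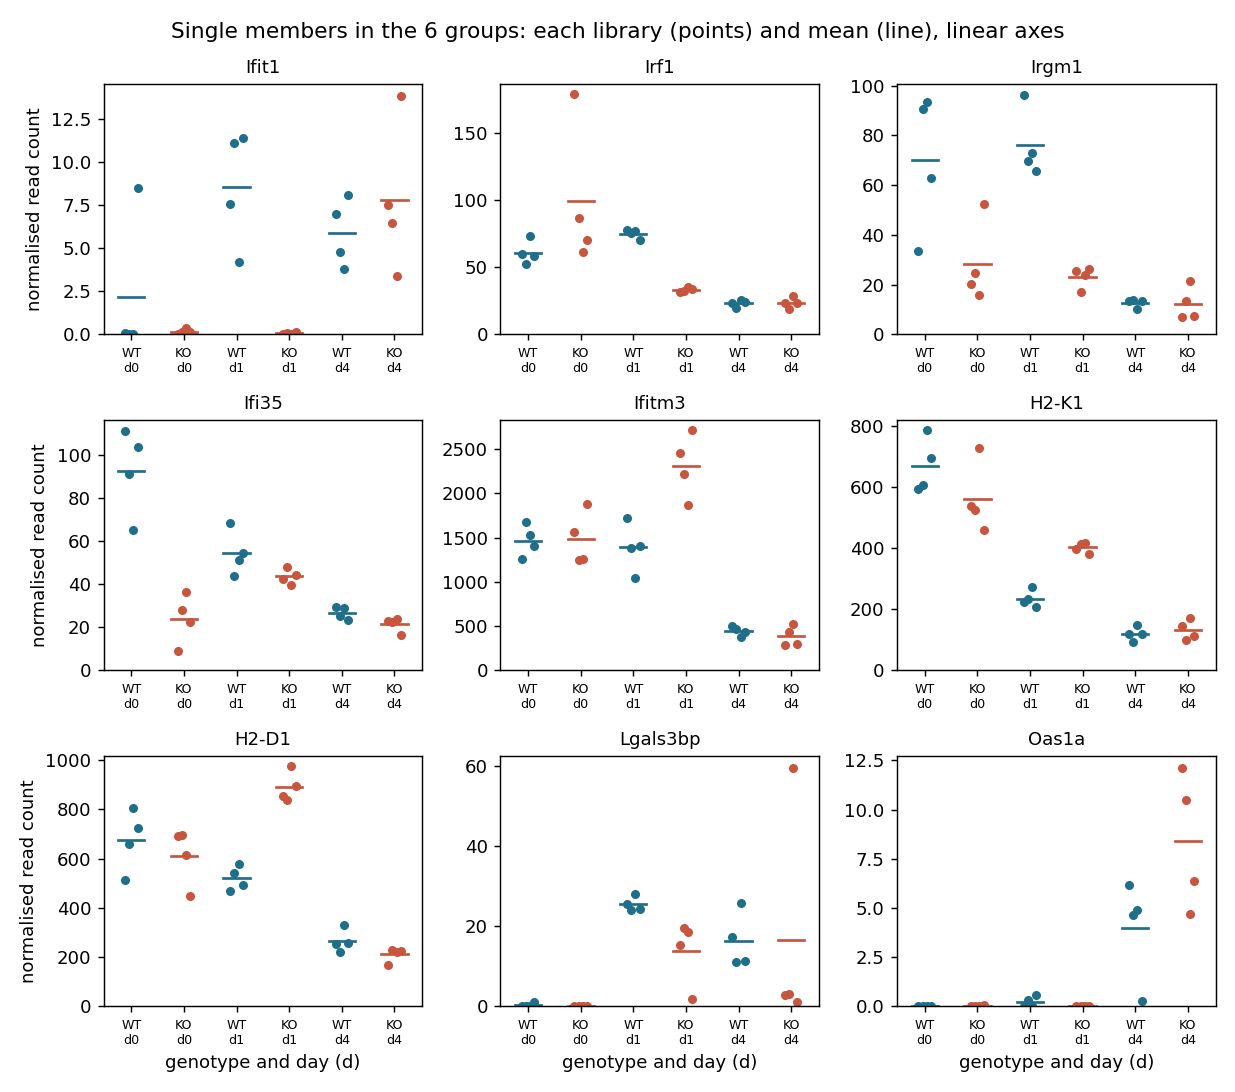
Normalised read counts (linear y axes) of 9 members in the 6 groups of genotype and day (x axis), with libraries as points, group means as lines, WT in blue and KO in red. Ifit1 is near 0 at day 1 in KO alone among the injured groups, Irf1 is at 31.1 to 35.3 there, and Oas1a has values above 1 only at day 4.

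Whether the difference between genotypes itself changed from 1 day to another was tested as an interaction. From day 0 to day 1 it became more negative for 4 members and more positive for 3, against 4.10% and 7.48% of all genes. The negative ones were Ifit3 (-4.11 ± 1.08, limma adjusted p = 0.01351), Dhx58 (-2.67 ± 0.67, 0.009614), Ifit1 (-2.42 ± 0.76, 0.0385) and Irf1 (-1.73 ± 0.33, 0.00103). Irf1 was the clearest of them: it read 59.4, 52.6, 72.9 and 58.4 in WT and 179, 86.7, 61.4 and 70.1 in KO at day 0, and was then lower in all KO libraries at day 1. The positive ones were Ifi35 (1.73 ± 0.40, limma adjusted p = 0.005157), H2-K1 (1.05 ± 0.24, 0.00458) and H2-D1 (0.92 ± 0.21, 0.005333). Ifi35, lower in KO at day 0, did not pass at day 1, when the genotypes overlapped (43.7 to 68.5 in WT, 39.8 to 48.2 in KO). From day 1 to day 4 the difference rose for Ifit1 (3.35 ± 0.76, limma adjusted p = 0.009515) and Irf1 (1.18 ± 0.33, 0.04301) and fell for Isg20 (-2.35 ± 0.54, 0.0106), H2-D1 (-1.11 ± 0.21, 0.002395) and Ifitm3 (-0.99 ± 0.25, 0.0217), that is 2 and 3 members against 0.759% and 3.21% of all genes. At day 4 Ifit1 read 7.0, 4.76, 3.76 and 8.08 in WT and 7.50, 6.45, 3.38 and 13.9 in KO, and the genotypes overlapped. Between day 0 and day 4 Ifi35 alone changed (1.72 ± 0.40, limma adjusted p = 0.01376), with no member in the other direction, against 2.01% of all genes that rose and 1.98% that fell, and that call ended under quantile normalization (1.38, adjusted p = 0.05107) and with only the groups compared (0.07794). Ifit1 from day 0 to day 1 lost its call in 11 of the 16 fits without 1 library (adjusted p from 0.05694 to 0.07986) and was not called by edgeR (0.2741) or DESeq2 (0.1778), with a pseudocount of 5 (0.0767), under quantile normalization (0.06784) or with only the groups compared (0.07105). Irf1 from day 1 to day 4 lost it in 15 of 16 (0.05829 to 0.09591), under quantile normalization (0.05449) and with edgeR (0.05297). Ifit3 from day 0 to day 1 was not called by edgeR (0.09003). Isg20 from day 1 to day 4 lost its call with a pseudocount of 5 (0.06255), and H2-D1 over the same days under quantile normalization (0.0653). H2-K1 and H2-D1 from day 0 to day 1 were not called under quantile normalization (adjusted p = 0.1463 and 0.2899). Ifitm3 from day 1 to day 4 lost its call without WT library 3 or KO library 4 of day 1, WT library 1 of day 4 or KO library 1 or 4 of day 4 (0.05254 to 0.05771), under quantile normalization (0.186) and with DESeq2 (0.0581). Under each alternative run Irf1, Dhx58 and Ifi35 from day 0 to day 1 and Ifit1 from day 1 to day 4 passed. These interactions share the libraries of the single-day comparisons and are not independent of them.

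Within WT, injury moved interferon response genes in both directions by day 1. Of the 41 members, 12 rose and 7 fell, against 27.7% and 24.9% of all genes. The share that rose was thus near that of all genes, and the share that fell was below it. Lgals3bp, a secreted glycoprotein, read 0.103, 0.109, 0.0385 and 0.964 before injury and 25.5, 24.2, 28.1 and 24.2 at day 1 (4.40 ± 0.72; limma adjusted p = 1.663e-05). Bst2, which tethers virus particles to the cell, read 14.5, 1.06, 2.89 and 6.61 and then 58.5, 53.3, 49.8 and 44.8 (3.24 ± 0.49; limma adjusted p = 6.289e-06). Both were far above all uninjured libraries. Oasl2 (2.79), Usp18 (2.51), Gbp3 (2.28), Dhx58 (2.16), Xaf1 (2.0) and Irf7 (1.65) also rose with no overlap between days, and Ifit1, Ifit2, Ifit3 and Ifi27 rose with libraries of the 2 days overlapping. Irf7 lost its call without library 3 of day 0 (adjusted p = 0.05989), and edgeR and DESeq2 did not call the rise of Usp18 (adjusted p = 0.1196 and 0.06746) of Ifit1 (0.1899 and 0.1401), Ifit2 (0.4184 and 0.344) or Ifit3 (0.2242 and 0.1526). The rises of Oasl2 (0.08804) and Gbp3 (0.09375) were not called by edgeR. Without 1 library, Ifit2 lost its call in 5 of 8 fits (0.06552 to 0.09321), Ifit3 in 3 (0.0616 to 0.06843) and Ifi27 in 4 (0.0506 to 0.1003). The 7 that fell included Stat2, from 54.3, 46.7, 87.3 and 69.0 to 7.08, 11.4, 8.93 and 10.7 (-2.61 ± 0.31; limma adjusted p = 1.422e-07), Parp14 (-2.07), B2m (-1.61), Ifitm1 (-1.52) and H2-K1 (-1.51).

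In KO, the same interval gave 8 members that rose and 8 that fell, against 24.2% and 21.5% of all genes, shares near those of all genes. Bst2 rose from 3.62, 0.0358, 6.60 and 3.15 to 39.6, 53.6, 42.7 and 50.1 (3.75 ± 0.49; limma adjusted p = 1.122e-06). Lgals3bp rose from 3 reads in all at day 0 to 1074 at day 1, a 271.2-fold higher level (95% interval 92.53 to 1317, counting error only). Ifitm2 (0.92), Ifi27 (0.88), Ifi35 (0.98) and H2-D1 (0.56) rose with no overlap. The falls with no overlap were those of Ifitm1 (-2.59), Parp14 (-2.57), Stat2 (-2.29), Gbp2 (-1.70), Irf1 (-1.43), B2m (-1.14) and H2-K1 (-0.46). Irf1 went from 179, 86.7, 61.4 and 70.1 to 31.1, 32.2, 35.3 and 33.4 (limma adjusted p = 2.39e-05), and in WT its days 0 and 1 overlapped. H2-K1 lost its call without KO library 3 of day 0 (adjusted p = 0.1272) or KO library 1 (0.05491) or 4 (0.06403) of day 1, and H2-D1 under quantile normalization (0.13, 0.5536), as did Ifi35 (0.05573), which did not pass with only the groups compared either (0.06803).

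Between day 0 and day 4, 9 members rose and 15 fell in WT, against 25.7% and 18.9% of all genes, and 8 rose and 11 fell in KO, against 22.3% and 18.2%. Oas1a, which makes the 2-5A second messenger that activates RNase L, had 0 reads in all 8 uninjured libraries. At day 4 it read 6.17, 4.62, 4.91 and 0.259 in WT and 12.1, 10.5, 4.68 and 6.39 in KO, at least 71.74-fold and 157.6-fold higher than the limit of 3 reads per group of day 0. Reads of Oas1a may be shared with the near copy Oas1g. Rsad2, which encodes the radical enzyme viperin, read 32.6, 21.9, 23.1 and 24.6 in WT and 26.9, 42.0, 31.8 and 32.0 in KO at day 4, above all uninjured libraries (0.0344 to 13.2), with differences of 3.45 ± 0.72 in each genotype (limma adjusted p = 0.0003951 in WT and 0.0004555 in KO; edgeR adjusted p = 0.05703 and 0.06635). Ifi44 had 0 reads at day 0 too and was at least 72.33-fold higher in WT at day 4. The macrophage and monocyte markers summed to 18.6 to 114 in WT and 25.7 to 56.6 in KO at day 0. At day 4 they summed to 1620 to 2170 and 1419 to 1575, while the sum of muscle stem cell markers was lower than at day 0. The part of this shift in the changes from day 0 to day 4 was not tested.

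Of the 9 class I and IFITM members, the same 5 (B2m, H2-K1, H2-D1, Ifitm2 and Ifitm3) were lower at day 4 than at day 0 in each genotype. Of all genes, 18.9% were lower in WT and 18.2% in KO. H2-K1 fell from 594, 605, 786 and 696 to 119, 91.8, 150 and 120 in WT (-2.48 ± 0.17; limma adjusted p = 1.761e-11) and from 538, 524, 729 and 458 to 145, 98.7, 172 and 111 in KO (-2.10 ± 0.17; limma adjusted p = 3.9e-10). Ifitm3 fell by 1.71 on the log2 scale in WT and by 1.97 in KO, and B2m by 1.57 and 2.0. Tap1 and Tap2 rose in KO (1.88 and 1.61), with overlapping libraries, and Tap1 lost its call without KO library 2, 3 or 4 of day 0 or KO library 2 or 4 of day 4 (adjusted p from 0.0713 to 0.1248), and under quantile normalization (0.06042), with only the groups compared (0.1048), with edgeR (0.2753) and with DESeq2 (0.1462). Tap2 lost its call with only the groups compared (0.06145). Under quantile normalization H2-D1 in WT (-0.21, adjusted p = 0.3062), B2m in WT (-0.39, 0.06817) and Ifitm2 in WT (-0.13, 0.5542) and KO (-0.28, 0.2041) no longer passed. Isg20 fell in KO from 19.2, 38.5, 12.5 and 22.8 to 0.668, 0.534, 1.26 and 1.07 (-3.60 ± 0.38; limma adjusted p = 4.886e-08), and in WT by 1.72.

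From day 1 to day 4, 6 members rose and 13 fell in WT, against 27.8% and 22.6% of all genes, and 7 rose and 10 fell in KO, against 26.2% and 23.4%. Ifi27 fell by 2.22 in WT and 2.91 in KO, Ifitm3 by 1.62 and 2.61, and Ifitm2 by 1.43 and 2.01. Irgm1 fell by 2.48 in WT, from 65.7 to 96.4 at day 1 to 10.3 to 13.9 at day 4. Ifit1 rose in KO from 3 to 435 reads, a 202.4-fold higher level (95% interval 68.81 to 985.4, counting error only), and in WT its libraries of days 1 and 4 overlapped (4.20 to 11.4 and 3.76 to 8.08). Stat2 and Ifitm1 rose again in both genotypes, by 1.04 and 2.30 in WT and by 1.59 and 2.29 in KO. The macrophage and monocyte markers summed to 9.52 to 33.9 in WT and 17.3 to 28.4 in KO at day 1. At day 4 they summed to 1620 to 2170 and 1419 to 1575, and their part in the changes from day 1 to day 4 was not tested. The scale moved in the comparisons with day 4: the median of all genes was 0.23 (day 4 against day 0) and 0.22 (day 4 against day 1) in WT, and -0.02 and 0.00 under quantile normalization. Under that setting H2-D1 in WT from day 1 to day 4 went from -0.97 to 0.08 (limma adjusted p = 0.7262) and B2m in KO from -0.86 to 0.54 (limma adjusted p = 0.01279), so these directions flip with the scaling. Of the calls between days in WT, 9 of 19 (day 1 against day 0), 15 of 24 (day 4 against day 0) and 10 of 19 (day 4 against day 1) passed under each alternative run, and in KO 11 of 16, 11 of 19 and 13 of 17.

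**Figure D4:**
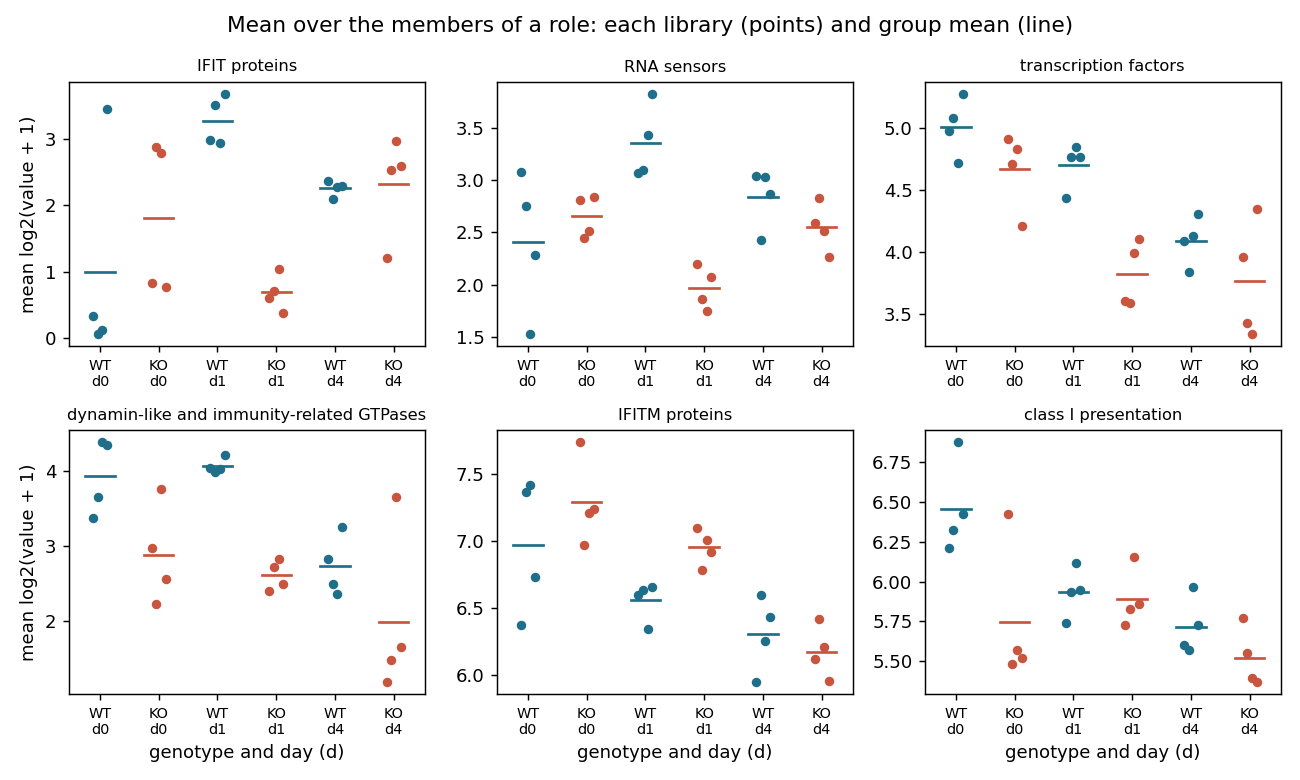
Mean log2(value + 1) over the members of 6 roles (y axis) in each library (points) of the 6 groups of genotype and day (x axis), with group means as lines, WT in blue and KO in red. At day 1 the IFIT mean is 2.94 to 3.68 in WT and 0.378 to 1.04 in KO, and the IFITM mean is higher in KO than in WT.

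Averaged over the genes of a role in each library, the IFIT mean of day 1 was 3.28 ± 0.37 (SD, n = 4) in WT and 0.69 ± 0.28 in KO, and that of the GTPases was 4.06 ± 0.11 and 2.61 ± 0.20. The RNA sensors stood at 3.36 ± 0.35 and 1.97 ± 0.20. These means are descriptions with no test. At day 0 the IFIT means of the genotypes overlapped (0.0517 to 3.46 in WT and 0.764 to 2.88 in KO), as they did at day 4 (2.10 to 2.37 and 1.20 to 2.98).

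Upstream of the members, 1 receptor gene passed the test between genotypes, at day 0, when 4.82% of all genes were higher and 4.93% lower. Of 15 listed ligand and receptor genes 5 had a row, all receptor chains, and the interferon genes themselves were not analysed here. Ifnar1, a chain of the type I receptor, read 9.87, 8.72, 7.35 and 3.62 in WT and 29.8, 15.5, 32.8 and 7.81 in KO at day 0 (1.30 ± 0.41; limma adjusted p = 0.04302). The libraries overlapped, and the call ended without WT library 3 (adjusted p = 0.06245) or 4 (0.1302) or KO library 1 (0.1203) or 3 (0.1295), with a pseudocount of 5 (0.06006), under quantile normalization (0.07463) and with only the groups compared (0.3954). Ifnar2, Ifngr1 and Ifngr2 passed in none of the comparisons of genotype, with differences from -0.29 to 0.84, and neither did the kinase gene Tyk2 (-0.32 to 0.61).

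Of 14 signal transduction genes tested, 3 rose and 2 fell in KO at day 1, against 7.12% and 2.08% of all genes, and none passed at day 0 or day 4. Socs3, a cytokine-induced inhibitor of receptor signalling, read 54.9, 70.6, 143 and 73.8 in WT and 20.3, 37.0, 38.4 and 32.4 in KO at day 1 (-1.33 ± 0.35; limma adjusted p = 0.01453), a call that ended without WT library 3 (adjusted p = 0.08627) or KO library 1 (0.06913). Jak1, the kinase of both receptors, read 169, 191, 222 and 159 in WT and 263, 248, 285 and 279 in KO (0.54 ± 0.14; limma adjusted p = 0.0137) and lost its call without WT library 4 (0.06522) and under quantile normalization (0.29, adjusted p = 0.32). Jak2 (1.11 ± 0.29) and the feedback inhibitor gene Socs1 (1.73 ± 0.48) rose too, the latter with overlapping libraries. Jak2 lost its call without WT library 3 (adjusted p = 0.07153) or KO library 2 (0.06864), and Socs1 without WT library 2, 3 or 4 or KO library 2 or 4 (0.05588 to 0.09152) and with edgeR (0.06233).

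Among 56 further interferon-stimulated genes tested, 4 fell and none rose in KO at day 1, against the 2.08% and 7.12% of all genes given above, with 47 of 56 differences negative and a median of -0.62. The 3 largest were Trim21, an antibody receptor in the cytosol (-2.26 ± 0.58, limma adjusted p = 0.01169), Herc6, the mouse ligase for ISG15 (-1.70 ± 0.42, 0.00948), and Ifit3b (-1.68 ± 0.44, 0.01525). Herc6 read 21.5, 18.9, 19.7 and 23.2 in WT and 9.25, 4.68, 6.96 and 3.40 in KO, with no overlap, and did not pass under quantile normalization (-1.45, adjusted p = 0.05093). Neither edgeR (adjusted p = 0.302) nor DESeq2 (0.2136) called Trim21, and its call ended without WT library 2 (0.05392); Ifit3b lost its call without WT library 4 (0.07663). At day 0 Ifi203 alone rose (2.41 ± 0.62, limma adjusted p = 0.01385), against 4.82% of all genes. At day 4 Ms4a4c alone fell (-1.76 ± 0.43, limma adjusted p = 0.04511), against 0.524% of all genes. Both had overlapping libraries. The call of Ifi203 ended with only the groups compared (adjusted p = 0.3617). That of Ms4a4c ended there too (0.3106), with a pseudocount of 0.5 (0.07722) and without any 1 WT library or KO library 1 or 4 (adjusted p from 0.06506 to 0.1603), and neither edgeR nor DESeq2 called it (adjusted p = 1 in both).

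Sensors and class I helpers showed few differences. Of 20 nucleic acid sensing genes, 2 fell at day 0, against 4.93% of all genes, and none passed at day 1 or day 4. At day 0 the kinase gene Tbk1 was lower in KO (-1.17 ± 0.24, limma adjusted p = 0.002146), as was the exonuclease gene Trex1 (-2.20 ± 0.54, 0.01076), the latter with overlapping libraries. Of 22 antigen processing genes tested, 1 rose and 3 fell at day 0, against 4.82% and 4.93% of all genes. None of them passed at day 1, and 1 fell at day 4, against 0.524% of all genes. The fallen genes of day 0 were H2-DMa, a class II peptide loader (-2.51 ± 0.51, limma adjusted p = 0.002293), the immunoproteasome subunit gene Psmb8 (-0.96 ± 0.25, 0.01561) and the proteasome activator gene Psme2 (-0.55 ± 0.16, 0.03439), and H2-Q7 rose (1.57 ± 0.42, 0.01746). All of these calls of day 0, Tbk1 and Trex1 included, ended with only the 8 libraries of that day in the fit. Neither edgeR (adjusted p = 0.1182) nor DESeq2 (0.05339) called Trex1, edgeR did not call H2-Q7 (0.05959), and Psme2 did not pass under quantile normalization (0.1346). Psmb8 also lost its call without WT library 3 (adjusted p = 0.05142), H2-Q7 without WT library 4 (0.0672) or KO library 4 (0.06107), and Psme2 without WT library 2 or 4 or KO library 1 or 2 (0.05191 to 0.1195). H2-T23, a nonclassical class I gene, was the gene lower at day 4 (-0.98 ± 0.23, limma adjusted p = 0.03581), and that call ended without WT library 1, 3 or 4 or KO library 1, 3 or 4 (0.05284 to 0.1321), with only the groups compared (0.05808) and with edgeR (0.05036).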

How the data were processed

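Libraries for bulk RNA-seq were prepared with SMART-Seq v4, as the labels' protocols state; there were 24, in 6 groups of 4. FastQC, STAR, RSEM, limma and mm39 are named in the submitters' processing notes, with no versions. The authors deposited 1 table of normalised counts, a signal per gene: each value is a whole count plus 0.5 over a scaled library size, and 100% of values came out whole within 0.02 reads when counts were recovered. Gene names are those of the table, and 0 further columns of per-sample values were left unused.

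Values were fitted as log2(value + 1) with limma 3.58.1 (trend, R 4.3.3) in 1 model of all 24 libraries, with 12 contrasts, over 16985 genes at 1 or more in at least 4 libraries; 126 genes were not tested. P-values are two-sided and adjusted by Benjamini-Hochberg within a contrast, with a threshold of 0.05. SE is the standard error of the fit. The model was tested on simulated data. Alternatives were no filter, a stricter filter, pseudocounts of 0.5 and 5, quantile normalization, only the groups compared, a replicate block, leaving out each library, and count tests on the recovered reads (edgeR 4.0.16; DESeq2 1.42.0). Intervals of count ratios cover counting error only (95%, exact).

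The members and lists were chosen with earlier results of these data known, by genes' roles. Values per library are given for members past the test whose groups do not overlap, by size of difference, up to 12 in a comparison of genotypes and 8 per direction in one of days; of each wider list up to 3 genes per direction and comparison of genotypes are named, plus Ifnar1, Ifnar2, Ifngr1, Ifngr2, Jak1 and Tyk2; 1 further gene that this rule names is not reported here, though it is counted with its list. Other members are named where their role is described; those that overlap or did not pass, and the libraries and marker genes singled out, were chosen after their values were seen.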

Additional observations from a re-analysis of the deposited data

Results flagged for a closer look

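In 25 of 246 gene and group pairs tested (41 members in 6 groups of 4 libraries), 1 library stood far from the other 3, by a gap past Dixon's 95% critical value. That value flags about 1 in 20 groups by chance only where values are normally distributed. Read counts near 0 are not, so the number of flags cannot be set against chance here. Among the uninjured WT libraries, the fourth was high for Ifit1 (8.47), Ifit2 (15.1), Ifit3 (7.68) and Lgals3bp (0.964) and low for Xaf1 (1.89); the third was low for Irf7 (1.27) and high for Rsad2 (10.7), and the first was high for Ifih1 (43.4). In KO at day 0, library 2 was high for Usp18 (10.6) and library 1 for Tap1 (22.4). At day 1, the WT libraries apart were the third for Ifitm2 (295, low) and the fourth for Rsad2 (12.1, high). The KO libraries apart at day 1 were the second for Dhx58 (2.86), the third for Ifit2 (7.33), Ifi44 (0.287) and, on the low side, Xaf1 (5.55), and the fourth for Nlrc5 (1.36). At day 4, WT library 2 was high for Oasl2 (25.7) and WT library 3 low for Irgm1 (10.3). In KO at day 4, library 3 was high for Iigp1 (84.7), Ifi44 (4.88) and Lgals3bp (59.6), library 2 for Oasl2 (7.93), and libraries 4 and 1 were low for Trim25 (38.5) and H2-D1 (169).

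The difference between KO and WT itself changed with the day for 9 members (limma interaction, adjusted p under 0.05). From day 0 to day 1 the changes on the log2(value + 1) scale were -1.73 for Irf1, -2.67 for Dhx58, -2.42 for Ifit1, -4.11 for Ifit3, 1.73 for Ifi35, 1.05 for H2-K1 and 0.92 for H2-D1. From day 0 to day 4 it was 1.72 for Ifi35. From day 1 to day 4 they were 1.18 for Irf1, 3.35 for Ifit1, -0.99 for Ifitm3, -2.35 for Isg20 and -1.11 for H2-D1.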

How the results depend on the processing

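Of 146 results in which a member passed the test in 1 of the 12 comparisons, 76 kept their direction and their side of the threshold under every alternative run, 70 did not, and 2 reversed, both under quantile normalization: H2-D1 in WT from day 1 to day 4 (0.0807) and B2m in KO from day 1 to day 4 (0.543). The number of members called, given here in each of the affected comparisons, was 5 at day 0 (KO against WT), and 3 under quantile normalization, 0 with only the groups compared and 9 with DESeq2. At day 1 it was 13, and 3 under quantile normalization, 21 with only the groups compared and 8 with edgeR or DESeq2. At day 4 it was 1, and 0 with the stricter filter (at least 5 in 8 libraries) or quantile normalization and 2 with a pseudocount of 0.5. The change of the difference from day 0 to day 1 gave 7, and 4 under quantile normalization; that from day 1 to day 4 gave 5, and 2 under quantile normalization and 11 with only the groups compared. From day 0 to day 4 it gave 1, and 2 with the stricter filter or a pseudocount of 0.5 or 5, 0 under quantile normalization or with only the groups compared, 3 with edgeR and 4 with DESeq2. WT day 4 against day 1 gave 19, and 31 with only the groups compared. The cause of these shifts was not tested. Leaving out 1 library at a time gave 3 to 5 members at day 0, 7 to 9 at day 1, 0 to 2 at day 4, 1 to 3 for the change from day 0 to day 4 and 3 to 6 for that from day 1 to day 4.

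Replicate numbers gave no clear pairing of the libraries: the deviations of same-numbered libraries correlated at -0.0236 to 0.27, and in no comparison did all pairs exceed 0.1. At most 5 of 8 libraries of a comparison correlated best with their own number. With the replicate block 11 members passed at day 1 and 0 at day 4.

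Over all genes, 1656 were called at day 0, and 68 with only the groups compared and 2536 with DESeq2; 1562 at day 1, and 996 under quantile normalization and 3958 with only the groups compared; 179 at day 4, and 101 with the stricter filter and 85 with edgeR. The change from day 0 to day 4 had 678, and 234 with only the groups compared and 1357 with DESeq2; that from day 1 to day 4 had 675, and 1523 with only the groups compared. The share of higher genes among those called was 77.4% at day 1, and 64.44% with DESeq2; 50.28% at day 4, and 70.59% with edgeR and 63.48% with DESeq2; 64.6% for the change from day 0 to day 1, and 50.09% with DESeq2; and 19.11% for that from day 1 to day 4, and 40.14% with DESeq2. Depth limits genes near 0: 3 reads are worth 0.145 to 0.320, so lower values cannot be ordered.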
